A study of Danio rerio with 6 samples.

Results

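A group of 10 genes that encode peptide hormones of the gut was followed in zebrafish intestinal epithelial cells at 5 and 3 days post fertilization (dpf). They are vipb, insl5a, insl5b, pyyb, ccka, gip, gcga, gcgb, ghrl and mlnl, taken as a named list of hormone genes, and they are 10 of the 32520 genes in the files. Of these names, 7 matched a symbol in the files. The other 3 were matched without the copy letter, pyyb as PYY, ccka as CCK and gcgb as GCG, and each lay on the chromosome that RefSeq gives for the zebrafish gene. RNA-seq was measured in 3 libraries at 5 dpf and 3 libraries at 3 dpf. All came from fish of the genotype TgKI - cldn15la-tdTomato (allele pd1249), a knock-in that marks cells expressing cldn15la, a claudin of the intestinal epithelium. The fish were anesthetized, and their bodies, without heads, were pooled and dissociated, and fluorescent cells that excluded a viability dye were sorted. One library titled 3 dpf, replicate 3, carries a tag of 4 dpf and was kept with the 3 dpf libraries by its title.

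Peptide hormones of the gut are made by enteroendocrine cells, which are scattered singly through the epithelium and sense nutrients, irritants and microbes at the lumen. Each precursor is cleaved by proprotein convertases, packed into dense-core granules and released towards blood and nerve endings, where it acts mostly on G protein-coupled receptors. The hormones set appetite, gut movement, digestive secretion and glucose handling. In bulk RNA, more cells of a type and more RNA per cell cannot be told apart.

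Libraries held 102653637 to 125456069 counts. Levels are CPM, counts scaled to the library total, with TMM factors, which assume that most genes do not change. In 5 dpf replicate 1, 29.2% of counts lay in mitochondrial genes, against 7.91% to 11.4% in the other 5 libraries, and its scaling factor was 0.612, against 1.00 to 1.27. All 7 epithelial markers were detected in every library, and at 5 dpf 3 were higher (fabp2, cdh17 and vil1) and 1 was lower (cdx1b). Their summed CPM was 13820, 6021 and 5803 in 5 dpf replicates 1, 2 and 3, and 4855 to 6060 in the 3 dpf libraries. The sort marker gene cldn15la was at 568 ± 293 CPM at 5 dpf, against 632 ± 93.4 CPM at 3 dpf (SD, n = 3 each; edgeR adjusted p = 0.779). Markers of other cells were present too. The summed CPM of 7 acinar pancreas markers was 234 to 797 at 5 dpf and 0.83 to 1.38 at 3 dpf, with 7 of 7 higher at 5 dpf. That of 7 mesenchyme markers was 1169 to 2032 at 5 dpf and 462 to 745 at 3 dpf, with 6 of 7 higher at 5 dpf. Most of the 3 dpf sum was an entry named tagln on chromosome 5, while RefSeq gives chromosome 15 for tagln. This entry was at 456 ± 277 CPM at 5 dpf, against 512 ± 160 CPM at 3 dpf (SD, n = 3 each), and was not called (edgeR adjusted p = 0.809). That of 4 leukocyte markers was 11.1 to 26.9 at 5 dpf and 1.02 to 2.32 at 3 dpf, with 4 of 4 higher at 5 dpf. Among 6 liver markers 1 passed the test, at 32.4 to 50.5 summed CPM at 5 dpf and 19.1 to 30.1 at 3 dpf, and among 3 erythroid markers 0 passed, also at an unadjusted p of 0.05, at 80.5 to 134 summed CPM at 5 dpf and 79.6 to 149 at 3 dpf. In the same edgeR test 18.1% of all genes were higher at 5 dpf, 14.1% were lower and 32.1% were called in either direction. The liver markers, at 16.7% higher, were near that share. No marker of these lists was at 0 throughout an age. The part of these cells in the hormone results was not tested.

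Of the 10 hormone genes, 8 were higher at 5 dpf and 0 were lower in edgeR's quasi-likelihood test with Benjamini-Hochberg adjustment over the 22386 genes tested, with a threshold of 0.05. Over all genes tested 18.1% were higher, 14.1% were lower and 32.1% were called in either direction. All 10 hormone genes passed the filter on low counts. The same 8 genes were the ones whose libraries did not overlap between ages with 5 dpf higher, which held for 26.1% of all genes tested (50.3% in either direction). The median log2 fold change of the 10 was 4.35, against 0.09 over all genes tested. The 2 that missed the test were gcgb, the second proglucagon copy, and ghrl, the ghrelin precursor. Since libraries are pools of fish, a p-value here is set against the spread between libraries, counting noise included, and not against that between single fish.

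**Figure D1:**
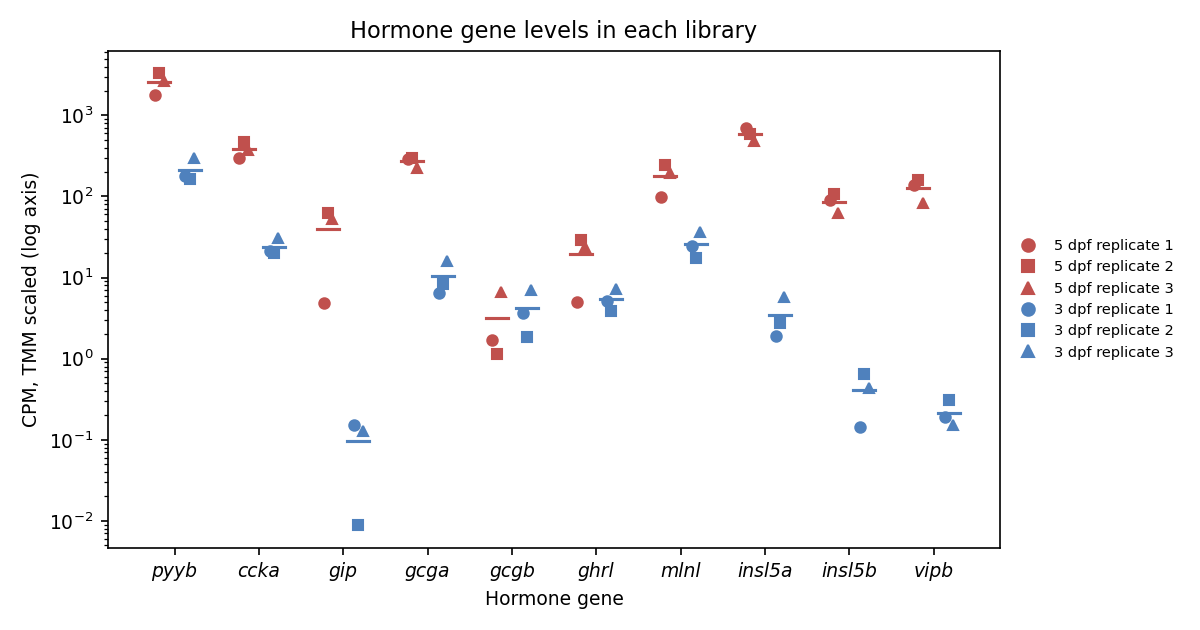
Level of each of the 10 hormone genes in each library, in CPM scaled by TMM on a log axis. Red symbols are 5 dpf and blue symbols are 3 dpf libraries, the shape gives the replicate and the line is the mean of the 3; the ages overlap for gcgb and ghrl only.

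Peptide YY and cholecystokinin are satiety hormones, which slow the emptying of the foregut and, for cholecystokinin, contract the gall bladder and drive pancreatic secretion. The pyyb gene (PYY, ENSDARG00000035832, GRCz11 chromosome 12, 10304435 to 10315039, minus strand) had 1786, 3300 and 2625 CPM in 5 dpf replicates 1, 2 and 3, and 179, 165 and 301 CPM in 3 dpf replicates 1, 2 and 3. Every 5 dpf library lay above every 3 dpf library, and 5 dpf replicate 1 was the lowest of its age. The log2 fold change was 3.58 ± 0.39 (SE; edgeR adjusted p = 0.00189). Per length (CPM per kb of exon), pyyb ranked 35, 5 and 6 among the 32520 genes at 5 dpf, and 225, 238 and 133 at 3 dpf. The ccka gene (CCK, ENSDARG00000070810, chromosome 16, 5774977 to 5779201, plus strand) had 294, 469 and 379 CPM at 5 dpf, against 21.3, 20.1 and 30.9 CPM at 3 dpf. Its ages did not overlap, and the same libraries as for pyyb were lowest and highest at 5 dpf. Its log2 fold change was 3.98 ± 0.30 (SE; edgeR adjusted p = 0.000882).

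The incretin gip, a hormone that enhances insulin release in mammals, was close to the floor of detection at 3 dpf. The gene (ENSDARG00000071306, chromosome 12, 20662426 to 20665865, minus strand) had 375, 8998 and 7481 counts in the 5 dpf libraries, and 16, 1 and 16 counts in the 3 dpf libraries. In CPM these were 4.91, 63.2 and 52.6 at 5 dpf, and 0.153, 0.00884 and 0.127 at 3 dpf. The ages did not overlap, but 5 dpf replicate 1 lay far below the other 5 dpf libraries. The log2 fold change was 8.70 ± 1.23 (SE; edgeR adjusted p = 0.00357), and leaving out 5 dpf replicate 1 gave 9.22. Its SE was the widest of the 10 genes.

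Proglucagon is cut into glucagon in islets and into glucagon-like peptides in the gut, and zebrafish have copies a and b. Here gcga rose and gcgb did not pass the test. The gcga gene (ENSDARG00000079296, chromosome 22, 11617520 to 11626018, minus strand) had 291, 299.9 and 225 CPM at 5 dpf, against 6.54, 8.42 and 16.2 CPM at 3 dpf. It lay above every 3 dpf library in all 5 dpf libraries, including replicate 1, and its log2 fold change was 4.71 ± 0.41 (SE; edgeR adjusted p = 0.00112). The gcgb gene (GCG, ENSDARG00000040907, chromosome 9, 51265283 to 51271597, plus strand) had 1.70, 1.15 and 6.66 CPM at 5 dpf, against 3.69, 1.85 and 6.97 CPM at 3 dpf. Replicate 3 was its highest library at both ages and the ages overlapped. Its log2 fold change was -0.39 ± 0.73 (SE; edgeR adjusted p = 0.711), and the sign turned without 3 dpf replicate 3 (0.18) or without 5 dpf replicate 2 (0.0041). Per length, gcga made up 95.3 ± 4.93% of the 2 copies at 5 dpf and 40.7 ± 11.7% at 3 dpf (SD, n = 3 each). The shares did not overlap, and an exact two-sided permutation test gave p = 0.1, the smallest that 3 against 3 libraries allow. By counts not divided by length, the difference was 26.8 percentage points rather than 54.6. On that scale gcga made up 98.7 ± 1.38% at 5 dpf and 71.9 ± 9.22% at 3 dpf (SD, n = 3 each). Which copy had the larger mean share at 3 dpf therefore depended on the scale.

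Since proglucagon is also made in pancreatic islets, islet markers are set beside it. Insulin (ins) was at 2.89, 3.07 and 5.86 CPM at 5 dpf, against 0.992, 0.681 and 0.874 CPM at 3 dpf, and rose by a log2 fold change of 2.22 (edgeR adjusted p = 0.00638). With 2 of 3 islet markers higher, against 18.1% of all genes tested, their summed CPM was 81.2 to 113 at 5 dpf and 38.6 to 43.0 at 3 dpf. Most of that sum was slc2a2, a glucose transporter that enterocytes also use, at 74.9 ± 29.8 CPM at 5 dpf, against 26.6 ± 4.66 CPM at 3 dpf (SD, n = 3 each). The third islet marker, sst2, was not called (log2 fold change 0.07, edgeR adjusted p = 0.956). It was at 1.31, 28.8 and 11.9 CPM at 5 dpf, against 15.6, 10.3 and 14.1 CPM at 3 dpf. The part of islet cells in the gcga and gcgb values was not tested.

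Ghrelin stimulates appetite, and motilin, whose gene family includes mlnl, drives the waves of contraction that sweep the fasted gut of mammals. The ghrl gene (ENSDARG00000054239, chromosome 6, 40437987 to 40439615, plus strand) had 5.02, 29.2 and 23.9 CPM at 5 dpf, against 5.15, 3.91 and 7.28 CPM at 3 dpf. In 5 dpf replicate 1 it sat within the 3 dpf range, while 5 dpf replicates 2 and 3 lay above it. The log2 fold change of 1.83 ± 0.59 (SE) just missed the threshold (edgeR adjusted p = 0.0502). Leaving out 5 dpf replicate 1 gave 2.28, which passed (edgeR adjusted p = 0.000745). Without any other single library it did not pass, at log2 fold changes of 1.41 to 2.08 (edgeR adjusted p of 0.0884 to 0.152). The mlnl gene (ENSDARG00000092916, chromosome 21, 11969603 to 11981523, plus strand) had 98.8, 242 and 198 CPM at 5 dpf, against 24.3, 17.7 and 36.6 CPM at 3 dpf. Its ages did not overlap and 5 dpf replicate 1 was again the lowest of its age. Its log2 fold change was 2.78 ± 0.41 (SE; edgeR adjusted p = 0.00403), the smallest of the 8 genes called. On the other strand mlnl overlaps NOP56, which fell by 1.07 on the log2 scale (edgeR adjusted p = 0.0299), and reads were counted by strand.

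Insulin-like peptide 5 belongs to the relaxin family and marks endocrine cells of the hindgut in mammals. The insl5a gene (ENSDARG00000070966, chromosome 6, 30703828 to 30708123, plus strand) had 698, 591 and 484 CPM at 5 dpf, against 1.93, 2.78 and 5.81 CPM at 3 dpf. Here 5 dpf replicate 1 was the highest of its age, and the ages lay far apart. The log2 fold change was 7.40 ± 0.53 (SE; edgeR adjusted p = 0.000822). The insl5b gene (ENSDARG00000069294, chromosome 2, 10127762 to 10129061, plus strand) had 91.0, 107 and 61.9 CPM at 5 dpf, against 0.143, 0.645 and 0.437 CPM at 3 dpf. Its ages did not overlap either, and its log2 fold change was 7.72 ± 0.60 (SE; edgeR adjusted p = 0.000882). The proportions of the insl5 copies overlapped between ages, with insl5a at 77.4 ± 3.47% of the pair per length at 5 dpf and 80.7 ± 10.9% at 3 dpf (SD, n = 3 each; exact two-sided permutation p = 0.6).

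Vasoactive intestinal peptide relaxes gut muscle and drives fluid secretion, and is best known from enteric neurons. The vipb gene (ENSDARG00000079443, chromosome 11, 43401201 to 43414172, plus strand) had 10615, 22843 and 11964 counts at 5 dpf and 20, 35 and 19 counts at 3 dpf. In CPM these were 139, 160.4 and 84.2 at 5 dpf, and 0.191, 0.309 and 0.151 at 3 dpf. The ages did not overlap, and the log2 fold change of 9.20 ± 0.46 was the largest of the 10 genes (SE; edgeR adjusted p = 0.000822). Of 9 enteric neuron markers 2 (22.2%, against 18.1% of all genes tested) were higher at 5 dpf, hand2 and stmn2a, and 0 were lower. Their summed CPM was 180.1 to 290.3 at 5 dpf and 174 to 289 at 3 dpf, most of it ret, and phox2bb had 0 counts in 5 dpf replicate 1, where the other 8 were detected. The part of enteric neurons in the vipb values was not tested.

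**Figure D2:**
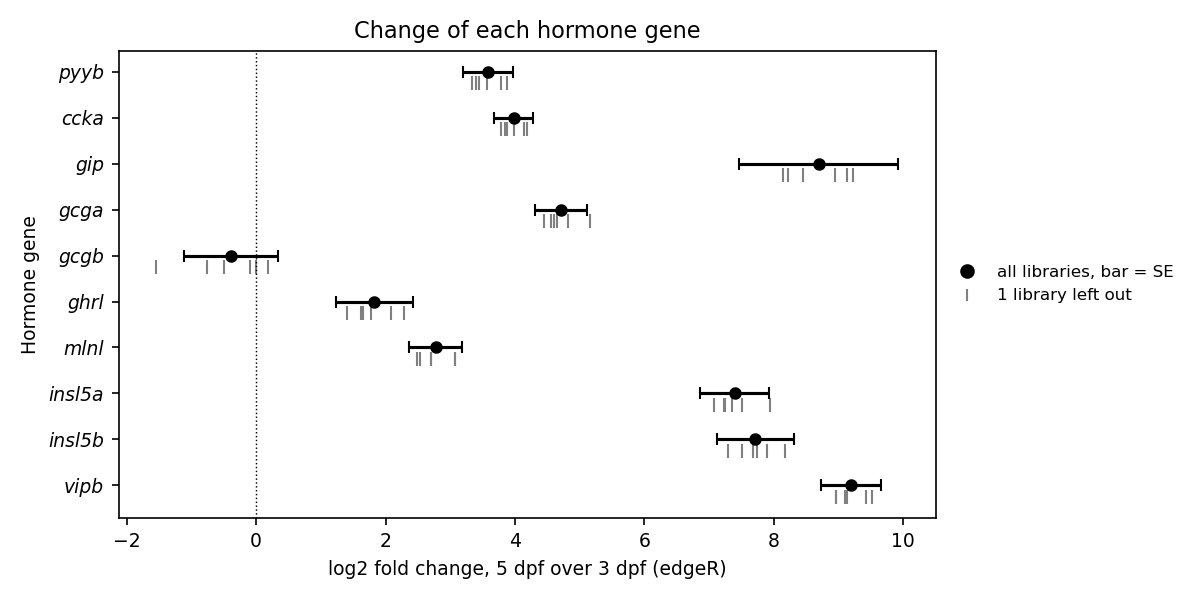
Log2 fold change of each hormone gene, 5 dpf over 3 dpf, from edgeR, with the bar showing 1 SE. Grey ticks are the values with 1 library left out; they cross 0 for gcgb only, and reach from 8.14 to 9.22 for gip.

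Levels were ordered across genes per length, and the order depends on the exon length in the files (374 bp for insl5b, 2317 bp for gcga). By mean CPM at 5 dpf, gcga (272), mlnl (179), vipb (128) and insl5b (86.5) ran in another order than per length. In CPM per kb the order of means at 5 dpf was pyyb (4004), insl5a (785), ccka (494), mlnl (271), insl5b (231), gcga (117), vipb (70.5), ghrl (32.3), gip (26.2) and gcgb (5.36). Neighbours whose ranges overlapped at 5 dpf were mlnl and insl5b, vipb and ghrl, ghrl and gip, and gip and gcgb. Compared within each library, the first of each pair was higher in 3 of 3, except mlnl over insl5b, in 2 of 3. At 3 dpf the order of means was pyyb (335), mlnl (39.6), ccka (31.3), ghrl (9.10), gcgb (7.04), insl5a (4.65), gcga (4.48), insl5b (1.09), vipb (0.120) and gip (0.0626). Ranges at 3 dpf overlapped between mlnl and ccka, ghrl and gcgb, gcgb and insl5a, insl5a and gcga, and vipb and gip. Within libraries these orders held in 3 of 3, except gcgb over insl5a and insl5a over gcga, each in 2 of 3. The gene for peptide YY led at both ages, and insl5a stood second at 5 dpf and sixth at 3 dpf.

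The make-up of the hormone transcripts differed with it. Per length, pyyb made up 65.6 ± 5.59% of the summed level of the 10 genes at 5 dpf and 77.4 ± 0.792% at 3 dpf (SD, n = 3 each). For insl5a the share was 13.7 ± 5.24% at 5 dpf and 1.03 ± 0.297% at 3 dpf. The share of mlnl was 4.37 ± 1.03% at 5 dpf and 9.13 ± 0.966% at 3 dpf, although its own level was higher at 5 dpf. That of ghrl was 0.501 ± 0.280% at 5 dpf and 2.12 ± 0.210% at 3 dpf. In all, 6 shares were higher at 5 dpf (vipb, insl5a, insl5b, ccka, gip and gcga) and 4 were lower (pyyb, gcgb, ghrl and mlnl). On this per-length scale no share overlapped between ages, and how often this holds over all genes was not computed. Each exact two-sided permutation test over libraries gave p = 0.1, the smallest possible (adjusted p = 0.1 over the 10 shares). For ccka the share was 8.19 ± 0.115% at 5 dpf and 7.40 ± 0.684% at 3 dpf. Without division by length the ccka share overlapped between ages, with 294 of 3410 CPM in 5 dpf replicate 1 and 21.3 of 242 CPM in 3 dpf replicate 1. Shares of a whole are tied to each other, since a higher share of 1 gene lowers the rest.

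**Figure D3:**
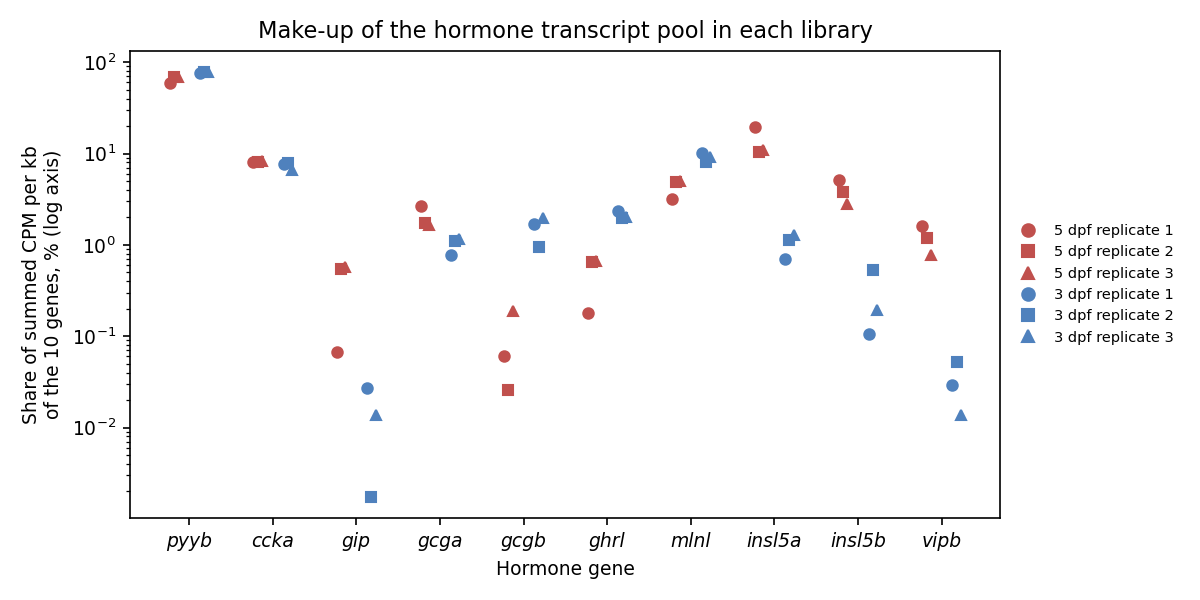
Share of each hormone gene in the summed CPM per kb of the 10 genes, in percent on a log axis, per library. Red symbols are 5 dpf and blue symbols are 3 dpf; insl5a stands at 10.5% to 19.7% in 5 dpf libraries and at 0.703% to 1.28% in 3 dpf libraries.

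Together the 10 genes summed to 3410, 5261 and 4140 CPM in 5 dpf replicates 1, 2 and 3, and to 242, 220.2 and 405 CPM in the 3 dpf replicates. Read without scaling, they took 0.209%, 0.597% and 0.524% of counts at 5 dpf, and 0.0247%, 0.0220% and 0.0450% at 3 dpf. Every 5 dpf library lay above every 3 dpf library on either scale.

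Libraries of the same age did not move all hormone genes alike. In 5 dpf replicate 1, 5 genes were the lowest of their age (pyyb, ccka, gip, ghrl and mlnl), while insl5a was the highest. The 5 of 10 was near the share over all genes tested, of which 45.5% were lowest and 41.5% highest in that library. That library also had the highest summed epithelial markers and the largest mitochondrial share, and the part of either in these hormone values was not tested. In 5 dpf replicate 2, 8 of the 10 were highest, against 30.2% of all genes tested. In 5 dpf replicate 3, 4 of the 10 were lowest, against 25.6% of all genes tested. Among the 3 dpf libraries, replicate 3, the one tagged 4 dpf, was highest for 7 of the 10, against 38.8% of all genes tested, and lowest for vipb. Taken as the root mean square difference of centred log2 CPM over the 6 libraries, the closest pair of hormone genes was pyyb and ccka, at 0.22.

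**Figure D4:**
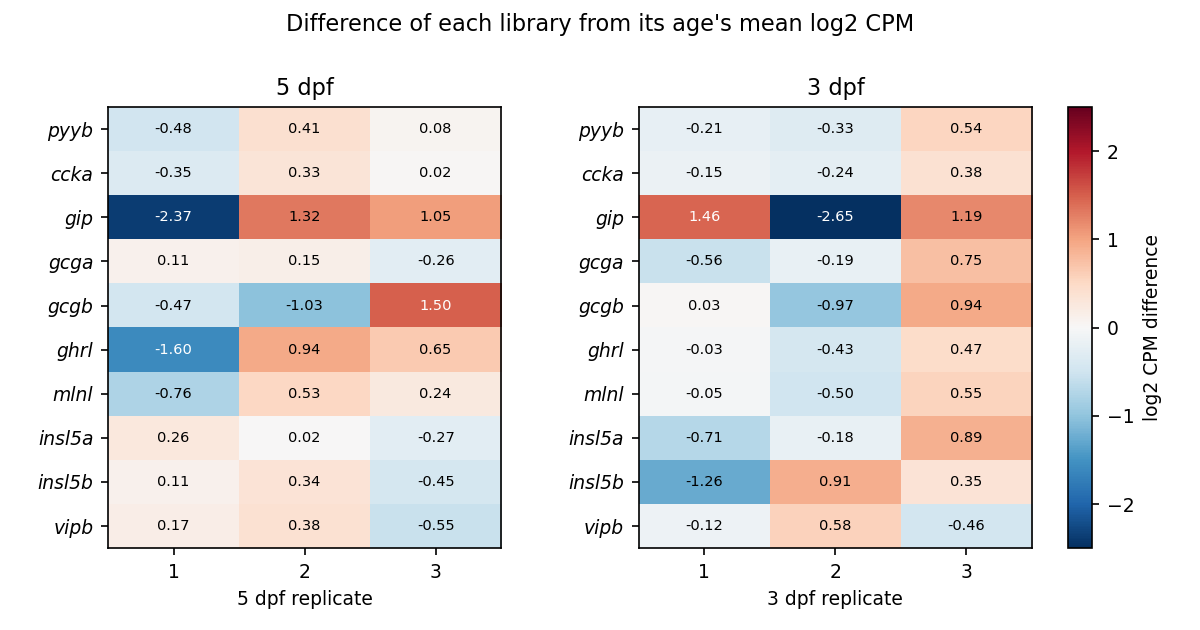
Difference of each library's log2 CPM from the mean of its age, for each hormone gene, with 5 dpf on the left and 3 dpf on the right. Red is above and blue below the mean of that age; gip and ghrl lie at -2.37 and -1.60 in 5 dpf replicate 1, where insl5a lies at 0.26.

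By the same measure over 12532 genes, the genes nearest to pyyb were DNM1 (0.16) and LRTM2 (0.18). Those nearest to ccka were ASZ1 (0.16) and calcb, a calcitonin gene-related peptide gene (0.18), and those nearest to mlnl were CACNA2D4 (0.17) and RNF150 (0.18). For gcga they were card14 (0.13) and tcnba (0.18), and for ghrl vcanb (0.11) and CSPG4 (0.14). The nearest to insl5b was si:ch211-163m16.7 (0.24), with insl5a second (0.57), and the nearest to insl5a were si:ch73-106l15.4 (0.29) and si:ch211-163m16.7 (0.51). Nearest to vipb were si:dkeyp-93a5.3 (0.61) and prss59.1 (0.62). The measure centres each gene over the 6 libraries, not within each age, so it takes in the change between ages. Its log2 CPM has a prior count of 2 added, so for genes at or near 0 CPM at 3 dpf the distance depends on that prior count. One such gene, si:ch211-163m16.7, was at 0, 0.0354 and 0.0159 CPM at 3 dpf, with a log2 fold change of 8.37, against 7.72 for insl5b. The gene si:dkeyp-93a5.3 was at 0 CPM in every 3 dpf library, with a log2 fold change of 13.3, against 9.20 for vipb. At 5 dpf it was highest in replicate 1 (16.9 CPM), whereas vipb was highest in replicate 2 (160.4 CPM). The gene prss59.1 is one of the acinar pancreas markers that were higher at 5 dpf, and their part in the vipb values was not tested. Nearest to gcgb were MAP1B (0.60) and VASN (0.62).

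The machinery that makes and releases peptide hormones had a smaller median change than the hormone genes. Of 45 genes for processing and granules, 43 were tested, and 17 were higher and 0 lower at 5 dpf, with a median log2 fold change of 1.04. That is 39.5% called, against 32.1% called and 18.1% higher over all genes tested. Among them pcsk2, a proprotein convertase, had 167 ± 88.7 CPM at 5 dpf, against 24.2 ± 10.2 CPM at 3 dpf (SD, n = 3 each; log2 fold change 2.79, edgeR adjusted p = 0.00767). The carboxypeptidase cpe (log2 fold change 1.34), the amidating enzyme pam (1.01) and the granule protein ptprna (1.44) passed as well (edgeR adjusted p = 0.0108, 0.00936 and 0.0134). This count moved with single libraries, as did the count over all genes. It was 8 without 3 dpf replicate 1, 6 without 3 dpf replicate 2, and 26 without 5 dpf replicate 1, of which 25 were higher. Over all genes the same fits called 3003, 3590 and 10628, against 7194 with all libraries.

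Set against 16 genes common to endocrine cells, the hormone genes as a sum stood higher in every 5 dpf library than in any 3 dpf library. The summed CPM of the 10 over that of the 16 was 2.12, 1.72 and 1.65 at 5 dpf and 0.156, 0.177 and 0.185 at 3 dpf. On the log2 scale the mean of this ratio was higher by 3.40 at 5 dpf than at 3 dpf. For pyyb alone the ratio was 1.08 ± 0.0323 at 5 dpf and 0.128 ± 0.0117 at 3 dpf (SD, n = 3 each), and 5 dpf replicate 1 lay with the other 5 dpf libraries. The 8 genes with ratios that did not overlap between ages were those whose CPM did not overlap either, and gcgb and ghrl overlapped. In CPM, lying higher at 5 dpf without overlap held for 26.1% of all genes tested, and for ratios that share was not computed. Exact two-sided permutation tests gave p = 0.1 for the sum, the smallest possible. With the processing list as the base, the log2 difference between ages was 2.83, but that list shares scg3 and other genes with the 16. The largest of the 16 was scg3, at 1145 ± 303 CPM at 5 dpf, against 543 ± 199 CPM at 3 dpf (SD, n = 3 each). The 16 genes were no fixed standard: 7 were higher and 2 lower at 5 dpf, and their summed CPM was 1607 to 3051 at 5 dpf and 1245 to 2188 at 3 dpf. Of 6 enteroendocrine markers, 1 was higher and 1 lower, which is 33.3% called, near the 32.1% over all genes tested. Their summed CPM was 1121 to 2081 at 5 dpf and 757 to 1466 at 3 dpf.

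**Figure D5:**
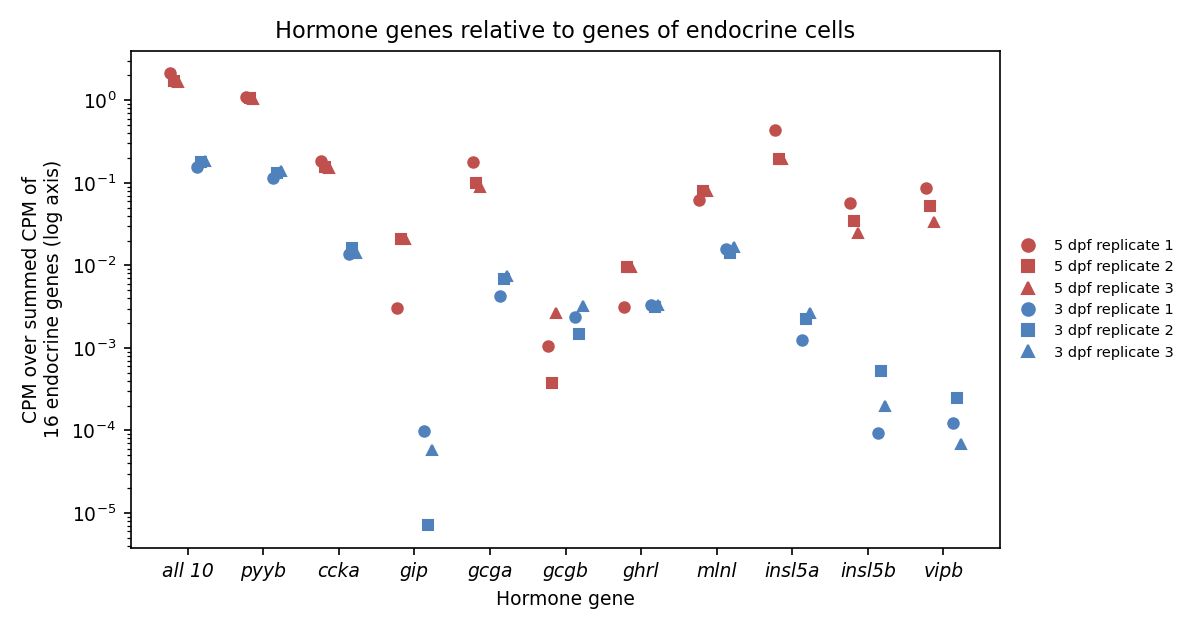
CPM of each hormone gene, and of all 10 summed, divided by the summed CPM of 16 genes common to endocrine cells, per library on a log axis. Red symbols are 5 dpf and blue symbols are 3 dpf; for all 10 the ratio is 1.65 to 2.12 at 5 dpf and 0.156 to 0.185 at 3 dpf.

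Among transcription factors that specify endocrine cells, more were lower than higher at 5 dpf. Of 34 genes, 32 were tested, and 1 was higher and 10 lower at 5 dpf, with a median log2 fold change of -0.58. The share called, 34.4%, was near the 32.1% over all genes tested, of which 14.1% were lower. The early factor sox4b (SOX4) was at 225 ± 67.4 CPM at 5 dpf, against 1197 ± 126 CPM at 3 dpf, and fell by 2.41 on the log2 scale (SD, n = 3 each; edgeR adjusted p = 0.00259). The zinc finger factor insm1b was at 159 ± 30.3 CPM at 5 dpf, against 417 ± 69.2 CPM at 3 dpf, and ascl1a at 55.2 ± 24.2 CPM at 5 dpf, against 213 ± 20.1 CPM at 3 dpf (edgeR adjusted p = 0.00645 and 0.00713). Both entries with the symbol MYT1 lie on chromosome 23, so myt1a and myt1b could not be told apart. Of these, ENSDARG00000102879 fell (log2 fold change -1.07, edgeR adjusted p = 0.0435), and ENSDARG00000074030 just missed the threshold (-0.89, edgeR adjusted p = 0.0507). The gene called higher was lmx1al, named after its values were seen, at 3.69 ± 2.13 CPM at 5 dpf, against 1.08 ± 0.354 CPM at 3 dpf (edgeR adjusted p = 0.0415). Its ages overlapped, with 1.32 CPM in 5 dpf replicate 1 and 1.48 CPM in 3 dpf replicate 3. Of the fits that left out 1 library, only that without 5 dpf replicate 1 called any of these factors higher. Without 3 dpf replicate 1, and likewise without 3 dpf replicate 3, 6 factors were called, all of them lower. Over all genes these fits called 3003 and 5293, against 7194 with all libraries.

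Among 46 other peptide genes 28 were tested, and 15 were higher and 0 lower (53.6% called, against 32.1% over all genes tested), with a median log2 fold change of 1.50. The opioid precursor penka was at 1763 ± 384 CPM at 5 dpf, against 124.9 ± 40.9 CPM at 3 dpf (SD, n = 3 each; log2 fold change 3.82, edgeR adjusted p = 0.00122). The gene of a peptide related to VIP, adcyap1a, was at 607 ± 130.3 CPM at 5 dpf, against 103 ± 40.7 CPM at 3 dpf (log2 fold change 2.56, edgeR adjusted p = 0.00308). Neuromedin B (nmbb) rose by 2.78 and nucleobindin (nucb2a) by 0.62 on the log2 scale (edgeR adjusted p = 0.00281 and 0.0333). Of 23 genes for amine synthesis and nutrient or irritant sensing, 19 were tested, and 12 were higher and 0 lower (63.2% called, against the same 32.1%), with a median of 2.01. They included ddc, which makes serotonin and dopamine (log2 fold change 3.33), the irritant channel trpa1b (2.92), the glucose transporter slc5a1 (3.57) and the channel subunit abcc8 (1.39), with edgeR adjusted p of 0.000822, 0.0022, 0.0092 and 0.0148.

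Receptors for the hormones were measured in the same sorted cells. Of 26 receptor genes 19 were tested, and 8 were higher and 0 lower at 5 dpf, with a median log2 fold change of 0.97. Of those tested 42.1% were called, against 32.1% over all genes, of which 18.1% were higher. The VIP receptor vipr1a was at 35.9 ± 14.6 CPM at 5 dpf, against 8.89 ± 3.64 CPM at 3 dpf (SD, n = 3 each; log2 fold change 2.02, edgeR adjusted p = 0.00979). Receptors of the peptide YY family, npy8br and npy1r, rose by 0.97 and 1.38 on the log2 scale (edgeR adjusted p = 0.0236 and 0.0364). The receptor of gip, gipr, named after its values were seen, was at 0.915 ± 0.331 CPM at 5 dpf, against 0.255 ± 0.0503 CPM at 3 dpf (edgeR adjusted p = 0.0201). The count was 4 without any 1 of the 3 dpf libraries, and 5 without 5 dpf replicate 2 or 3. Over all genes these fits called 3003 to 5311, against 7194 with all libraries.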

How the data were processed

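Each library has a deposited file of unnormalized counts, in which the authors counted read pairs over the exons of each gene. Per the file headers this was done with featureCounts 1.6.3, with strand setting 2, on Ensembl release 115 of GRCz11. The submitters' processing notes also name Trimmomatic 0.38, STAR 2.7.11 and Subread 1.6.3. Totals were 102653637 to 125456069 counts. Groups follow the sample titles, and all libraries carry batch 1.

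Counts were tested with edgeR 4.0.16 in R 4.3.3 (quasi-likelihood F-test, two-sided, TMM, filterByExpr with minimum count 10 and total 15, age as the only term), with Benjamini-Hochberg adjustment over 22386 genes. SE is the log2 fold change over the root of F. On counts simulated with edgeR's own dispersions, edgeR recovered most 4- and 8-fold changes and few 1.5- and 2-fold ones. There edgeR made 7 false calls of 101, and DESeq2 67 of 177. Far fewer genes were changed in that simulation than were called in the data, so it does not rank the 2 tools here. DESeq2 1.42.0, other scalings and filters, and fits without each library were alternatives. CPM per kb uses the exon length in the files. Single values were compared by exact permutation over libraries.

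All 10 hormone genes are named. From each gene list, up to 4 called genes of highest mean CPM were named, at 5 CPM or more at the higher age, and for each hormone gene the 2 genes most like it, except gip, for which this is not reported here. Members and lists were chosen with earlier results of these data known. Same-numbered libraries did not deviate together (correlations across genes of 0.0923, -0.217 and 0.193), so no block was used. Non-transgenic controls were not analysed here.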

Additional observations from a re-analysis of the deposited data

How the results depend on the processing

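Under 15 alternatives, 8 hormone genes (all but gcgb and ghrl) kept their direction and stayed past the threshold, and 8 to 9 hormone genes were called without single libraries. For ghrl, log2 fold changes ran from 1.41 to 2.53 and passed under 6 alternatives. For gcgb the sign turned without 3 dpf replicate 3 (0.18), without 5 dpf replicate 2 (0.0041) and with 3 dpf replicate 3 and 5 dpf replicate 1 both left out (0.48), its lowest value was -1.55, without 5 dpf replicate 3, and the cause was not tested. With library size only, 3849 genes were called against 7194, with 4 receptors, 9 processing genes and 3 transcription factors, and the cause was not tested. Without both doubted libraries 11902 genes, 10 receptors, 33 processing genes and 16 transcription factors were called. Leaving out 1 library gave 3003 to 10628 genes, 4 to 9 receptors, 6 to 26 processing genes and 6 to 14 transcription factors. The median over all genes was 0.22 with upper quartile scaling and 0.01 with library size only, against 0.09. The log2 difference between ages in the ratio of hormone to endocrine genes was 2.83 with the processing list as base. With the 16 endocrine genes as base it was 3.40, and the cause was not tested. The gcga share differed between ages by 26.8 points by counts, against 54.6 points per length. At 3 dpf gip was near the floor of detection, with 16, 1 and 16 counts in replicates 1, 2 and 3, and the cause was not tested.

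With the replicate number as a block, 8 hormone genes and 5638 genes were called. The numbers are not known to pair libraries.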

Other observations

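Genes that lie next to the hormone genes were read from the same files, and those described were picked after their values were seen. The proteases dpp4 and fap, the first of which trims incretins and peptide YY in mammals, lie beside the proglucagon copies on the same strand. The dpp4 gene lies 2420 bases from gcga and was at 262, 80.97 and 109 CPM at 5 dpf, against 98.3, 127 and 78.8 CPM at 3 dpf. Its ages overlapped and it did not pass the test (log2 fold change 0.57, edgeR adjusted p = 0.351). The fap gene, 3944 bases from gcgb, was at 7.75 ± 3.57 CPM at 5 dpf, against 2.03 ± 1.04 CPM at 3 dpf (SD, n = 3 each), and rose by 1.93 on the log2 scale (edgeR adjusted p = 0.0226), while gcgb did not pass. Beside vipb, sult6b1, a sulfotransferase gene, rose by 3.35 (edgeR adjusted p = 0.0128) and was highest in 5 dpf replicate 1, at 1182 CPM. Both neighbours of pyyb, MPP2 and tut1, fell (log2 fold changes of -1.22 and -1.39, edgeR adjusted p = 0.0204 and 0.00671).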
